A study of Mus musculus with 90 samples.

Results

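The mouse genes for inorganic ion and metal transporters were described in brain sections from mice under chronic social stress (CSS) and from control mice. The set was taken by gene name: every gene called Slc4a, Slc8a, Slc9a, Slc12a, Slc24a, Slc30a or Slc39a followed by a number, with Slc4a2, Slc4a5, Slc4a10 and Slc12a2 left out. That gave 59 of the 19962 genes measured. The name rule took in 56 transporter genes and 3 genes of proteins that are not transporters, the scaffold genes Slc9a3r1 and Slc9a3r2 and the adaptor gene Slc4a1ap. No measured value enters the rule.

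Expression was measured with the GeoMx Digital Spatial Profiler, in which light frees the tags of RNA-bound probes from selected areas of interest (AOIs) of a section, and the tags are sequenced and counted. The tissue was formalin-fixed, paraffin-embedded mouse brain. There were 6 CSS mice and 4 control mice, and each mouse gave AOIs from up to 5 subregions: the hippocampal fields CA1 and CA3, the motor cortex (MC), the somatosensory cortex (SS) and the choroid plexus (CP). Within a subregion of a mouse at most 1 AOI was labelled p16 high and at most 1 p16 low, p16 being a cell cycle inhibitor that accumulates in senescent cells. The sources used here do not say how the p16 label was assigned or how AOIs were drawn, nor the strain, age or sex of the mice. The labels name no transgene and no treatment other than CSS. In all 90 AOIs were measured, 46 p16 high and 44 p16 low, in 20 groups of 3 to 6. CA1, CA3, MC and SS were present in 10 mice each and CP in 9.

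These carriers move metal and inorganic ions across cell membranes. Slc39 proteins (ZIP) bring zinc, and some of them iron or manganese, into the cytosol, while Slc30 proteins (ZnT) move zinc out of it, either from the cell or into vesicles and organelles. Slc12 proteins couple chloride to sodium or potassium, Slc4 proteins carry bicarbonate, Slc9 proteins exchange sodium or potassium for protons, and Slc8 (NCX) and Slc24 (NCKX) proteins export calcium in exchange for sodium, the latter together with potassium. In neurons KCC2, the product of Slc12a5, keeps chloride low so that GABA inhibits, NCX and NCKX proteins clear calcium after firing, and ZnT3, from Slc30a3, loads zinc into synaptic vesicles. The choroid plexus is an epithelium that secretes cerebrospinal fluid by ion transport.

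Promoters of 47 members were found among RefSeq sequences (GRCm38.p6, the mm10 build), as 60 windows of 300 bases from 250 bases before to 50 after a transcript start. They were searched on both strands for the pattern TGCNCNC. It is looser than the core of the metal response element, to which the zinc sensor MTF-1 binds. That core is TGCRCNC, R being A or G, so a match to the pattern need not be the core. Printed here are the windows of the pair of members with the largest rise in choroid plexus, Slc39a12 (chr2:14388148-14388447, plus strand) and Slc12a4 (chr8:105966066-105966365, minus strand), of the member with the largest fall there, Slc8a2 (chr7:16129576-16129875, plus strand), and of the member with the largest CA1 difference, Slc24a3 (chr2:145167525-145167824, plus strand, the upstream of 2 starts). Capitals mark the pattern on either strand, the rest is in lower case, and all run 5′ to 3′ along the gene.
Slc39a12: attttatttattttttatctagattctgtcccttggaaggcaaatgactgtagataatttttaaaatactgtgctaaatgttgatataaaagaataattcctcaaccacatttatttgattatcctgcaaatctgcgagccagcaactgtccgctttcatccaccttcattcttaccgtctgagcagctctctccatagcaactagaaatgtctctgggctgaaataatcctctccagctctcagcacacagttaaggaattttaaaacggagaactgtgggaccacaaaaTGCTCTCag
Slc12a4: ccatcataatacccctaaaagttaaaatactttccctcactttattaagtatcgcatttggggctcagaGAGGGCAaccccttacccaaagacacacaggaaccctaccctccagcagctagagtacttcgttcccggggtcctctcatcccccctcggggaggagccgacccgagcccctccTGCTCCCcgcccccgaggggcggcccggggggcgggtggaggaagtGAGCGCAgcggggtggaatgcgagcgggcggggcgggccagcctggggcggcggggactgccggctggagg
Slc8a2: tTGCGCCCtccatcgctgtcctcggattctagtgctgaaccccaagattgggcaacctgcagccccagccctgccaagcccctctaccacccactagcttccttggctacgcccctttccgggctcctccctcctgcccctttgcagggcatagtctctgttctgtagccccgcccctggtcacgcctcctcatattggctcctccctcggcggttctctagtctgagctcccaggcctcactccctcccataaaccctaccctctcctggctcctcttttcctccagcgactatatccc
Slc24a3: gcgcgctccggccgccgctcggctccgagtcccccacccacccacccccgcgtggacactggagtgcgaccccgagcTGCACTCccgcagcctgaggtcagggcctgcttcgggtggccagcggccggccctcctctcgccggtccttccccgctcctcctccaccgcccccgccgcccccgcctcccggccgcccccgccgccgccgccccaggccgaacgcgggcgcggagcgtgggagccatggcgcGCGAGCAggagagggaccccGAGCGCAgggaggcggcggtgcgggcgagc
The Slc12a4 and Slc24a3 windows held 3 matches each and the Slc39a12 and Slc8a2 windows 1 each. The Slc39a12 match, TGCTCTC, has T where the core has A or G. The pattern is short and common: 51% of 32851 RefSeq promoter windows held it, against 41 of the 60 member windows (68.3%). Among members higher in choroid plexus than elsewhere (tests below) 14 of 16 windows held it, and among members lower there 15 of 22. Member windows were also richer in CG dinucleotides than the rest, with a median of 17.5 against 7, and the Slc39a12 window held 4 and the Slc24a3 window 43. A match describes letters only, and no binding was measured.

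The values are the deposited signal, which the authors scaled so that the median gene stood at 22.067 in every AOI. The negative control probe, which binds no mouse RNA, read 10.785 to 18.143, so a signal in the teens is at background. Recovered probe counts ran from 184469 to 2098984 per AOI, and the median gene stood at 1.69 times the negative probe in CA1, 1.56 in CA3, 1.35 in MC, 1.41 in SS and 1.64 in CP. The subregion labels were checked against marker genes: the summed signal of 5 choroid plexus epithelium genes ran from 49907 to 97801 in CP, against medians of 99.8 to 278.5 elsewhere, and 4 neuron genes summed to 73.3 to 110.5 in CP against medians of 2179 to 4758 elsewhere. The 4 CA3 pyramidal markers summed to 406 to 800 in CA3 and to at most 131 in any mouse elsewhere. In CA3 the choroid plexus genes summed to 61.9 to 512 with a median of 278.5, above the medians of 99.8 to 113 in CA1, MC and SS. In the single CA3 AOI of CSS mouse 1163, CA1 pyramidal markers summed to 253, the highest of 10 mice, whose median was 96.0. A bulk signal cannot tell fewer cells of a type from less RNA per cell.

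The members were measured somewhat better than the average gene. Their median signal was 2.16 times the negative probe, against 1.53 over all genes, and 30 of 59 (50.8%) averaged over 2 times the negative probe, against 36.8% of all genes. In single subregions 42 members passed 2 times the negative probe somewhere and 17 passed 5 times. The other 17 members reached 2 times the negative probe in no subregion: the kidney carriers Slc12a1 and Slc12a3, Slc12a8, the red cell anion exchanger Slc4a1, Slc4a9 and Slc4a11, the proton exchangers Slc9a3 and Slc9a5, the calcium exchangers Slc8a3 and Slc24a1, the zinc exporters Slc30a2, Slc30a7 and Slc30a8, the manganese exporter Slc30a10, and the zinc importers Slc39a2, Slc39a5 and Slc39a8. Differences in these genes are between signals near background.

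Among the members farthest above background, Slc12a5 reached 28.3 times the negative probe in CA1, the sodium-calcium exchangers Slc8a1 and Slc8a2 25.6 and 24.8 times in CA1, the potassium-dependent exchangers Slc24a2 23.5 times in CA3 and Slc24a3 16 times in CA1, and in choroid plexus the zinc importer Slc39a12 10.4 times and the potassium-chloride cotransporter Slc12a4 (KCC1) 8.16 times. Each ratio sets a gene against background, and because every gene has its own probes these are not a ranking of RNA amounts. A few members hardly moved between subregions, among them the plasma membrane zinc exporter Slc30a1, with medians over mice from 31.9 to 34.9 in all 5 subregions. The levels of 9 members by mouse and subregion are plotted.

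**Figure D1:**
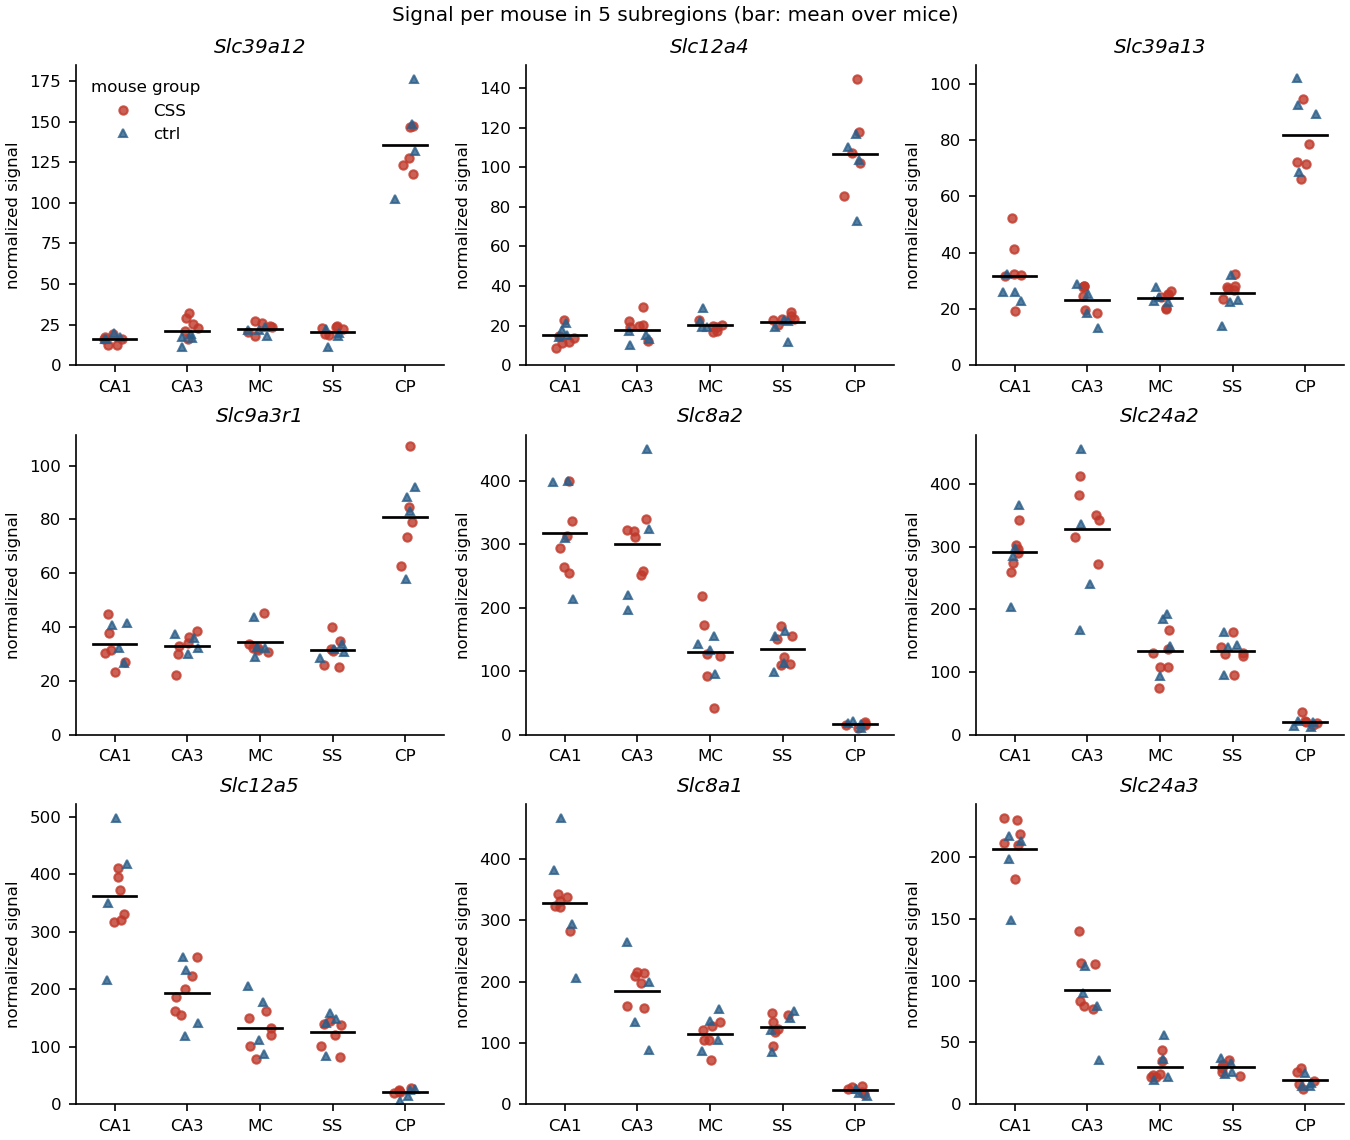
Normalized signal of 9 members (linear axis) in each CSS mouse (circles) and control mouse (triangles), by subregion, with the mean over mice as a bar. Slc39a12, Slc12a4, Slc39a13 and Slc9a3r1 are highest in CP, where Slc39a12 runs from 102 to 177, while Slc12a5, Slc8a1, Slc8a2, Slc24a2 and Slc24a3 stand at or near background in CP and highest in CA1 or CA3.

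The choroid plexus was compared with the hippocampus and cortex of the same mouse (9 mice). Of the 59 members 16 were higher in choroid plexus (20.7% of all genes were) and 19 lower (19.3% of all genes), in limma with Benjamini-Hochberg adjustment over all genes. The median member stood at -0.10 on the log2 scale, against -0.03 over all genes. Zinc importers made up 7 of the 16 that rose. Every Slc8 member fell, and no Slc9 or Slc4 carrier of the set rose. The set leaves out Slc4a2, Slc4a5 and Slc4a10, which all rose (values below). The lack of a rise thus holds only for the Slc4 genes kept. In 31 of the 35 called members the sign was the same in all 9 mice.

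Slc39a12, the gene of the zinc importer ZIP12 (chr2:14388316-14494977), had signals of 102, 132 and 177 in choroid plexus (lowest, median and highest of 9 mice) against 15.9, 19.2 and 23.4 elsewhere, a 6.75-fold rise (log2 2.76, SE 0.10, adjusted p = 9.62e-12). The lowest choroid plexus value lay above every other value , and outside choroid plexus the gene stood at 1.25 to 1.51 times the negative probe. Slc39a13 (ZIP13, which releases zinc from vesicles and the Golgi) read 66.2, 78.5 and 102 against 19.3, 26.3 and 31.4 (log2 1.67, SE 0.11, adjusted p = 1.28e-08). Slc39a4, the importer of dietary zinc in the gut, read 31.9, 41.4 and 49.6 against 15.0, 17.2 and 20.6 (log2 1.21, SE 0.08, adjusted p = 1.2e-08). Neither gene's groups overlapped. Smaller rises were seen for Slc39a1 (1.02), Slc39a9 (0.97), Slc39a7 (0.90), which releases zinc from the endoplasmic reticulum, and Slc39a14 (0.58), which also carries iron and manganese. Slc39a10 fell by 1.33 and Slc39a3 by 0.80, both plasma membrane importers. The remaining 5 of the 14 Slc39 genes were not called.

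On the export side 3 of 10 Slc30 genes rose and 2 fell. The early secretory pathway exporters Slc30a5 (log2 0.78) and Slc30a6 (0.36, above 0 in 8 of 9 mice), whose products act as a pair, and Slc30a4 (0.46) rose. Slc30a3, which fills synaptic vesicles with zinc, read 8.28, 15.2 and 18.9 in choroid plexus against 35.2, 43.1 and 55.6 elsewhere, and fell by 1.47 (SE 0.14, adjusted p = 4.11e-07). Its choroid plexus signal was 1.12 times the negative probe, and the groups did not overlap. Slc30a10, the manganese exporter, fell by 0.47 from a signal that was under 2 times background everywhere.

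Among chloride carriers the potassium-chloride cotransporters split. Slc12a4 (KCC1, chr8:105943590-105966149) read 73.1, 107 and 145 in choroid plexus against 13.9, 19.3 and 21.1, a 5.66-fold rise (log2 2.50, SE 0.10, adjusted p = 5.12e-11). Slc12a7 (KCC4) rose too (22.1, 34.0 and 38.7 against 12.4, 15.2 and 17.4, log2 1.13, SE 0.12, adjusted p = 1.33e-06). Slc12a5 (KCC2), the neuronal form, read 5.52, 23.6 and 27.6 against 126, 210 and 279 and fell by 3.19 (SE 0.23, adjusted p = 2.23e-08). For Slc12a4, Slc12a5 and Slc12a7 the groups of mice were fully apart, with KCC1 and KCC4 at 0.88 to 1.37 times background outside choroid plexus and KCC2 at 1.54 times background inside it. Slc12a9 fell by 0.31, and Slc12a1, Slc12a3 and Slc12a8 were not called.

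Calcium exchangers gave the largest falls. Slc8a2 (NCX2) read 9.81, 16.6 and 21.9 in choroid plexus against 151, 226 and 284, a 12.1-fold fall (log2 -3.60, SE 0.15, adjusted p = 4.55e-11). Slc24a2 (NCKX2) read 13.0, 19.7 and 36.8 against 140, 224 and 290 (log2 -3.35, SE 0.14, adjusted p = 8.35e-11). Slc8a1 (NCX1) read 13.8, 24.4 and 29.8 against 116, 193 and 252 (log2 -2.91, SE 0.17, adjusted p = 1.84e-09). All 3 lay near background in choroid plexus and were several times higher in every mouse elsewhere. Slc24a3 (NCKX3) fell by 1.69 (SE 0.16, adjusted p = 2.91e-07) and Slc8a3 by 0.66. In the other direction, Slc24a5, known from melanosomes, rose (24.5, 37.2 and 55.2 against 13.6, 16.6 and 19.6, log2 1.13, SE 0.11, adjusted p = 7.89e-07), as did Slc24a4 (0.63).

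The bicarbonate and proton carriers of the set moved one way or were not called. Slc4a8, a sodium-driven chloride bicarbonate exchanger, fell by 1.25 (SE 0.14, adjusted p = 3.86e-06), Slc4a4, a sodium bicarbonate cotransporter of astrocytes, by 0.97, and the anion exchanger Slc4a3 by 0.26. Of the proton exchangers the Golgi form Slc9a7 fell by 1.0, Slc9a2 by 0.94 and Slc9a9, an endosomal form, by 0.51. The scaffold gene Slc9a3r1, whose product NHERF1 ties membrane carriers to ezrin under the apical membrane, read 57.8, 83.3 and 107 against 27.2, 32.1 and 38.6 and rose (log2 1.28, SE 0.08, adjusted p = 3.48e-09), and Slc9a3r2 rose by 0.71. The lowest choroid plexus value of Slc9a3r1 lay above the highest value elsewhere.

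**Figure D2:**
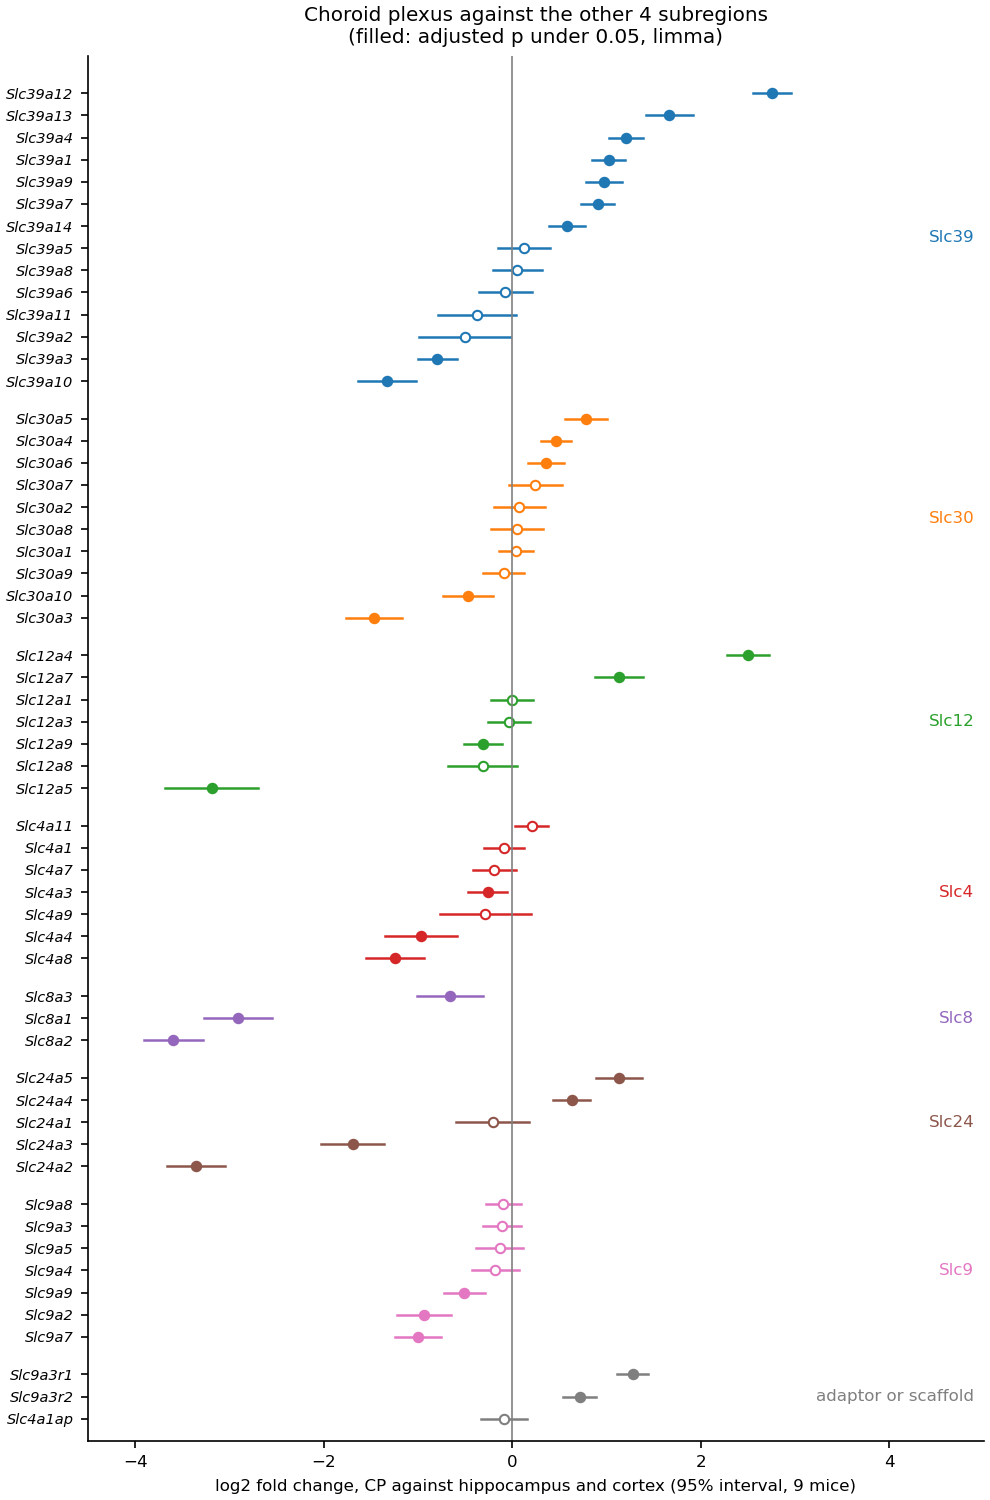
Log2 fold change (x axis) of 56 members, by family, between choroid plexus and the hippocampus and cortex of the same 9 mice, with 95% intervals as lines and filled points for called members. Slc39a12 and Slc12a4 stand at the top at 2.76 and 2.50, and Slc8a2, Slc24a2, Slc12a5 and Slc8a1 at the bottom between -3.60 and -2.91.

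The 4 genes left out of the set by name all rose in choroid plexus: Slc4a2 by 5.20, Slc4a5 by 4.42, Slc12a2 by 3.25 and Slc4a10 by 2.11. The lists that follow were counted in the same comparison, where 20.7% of all genes rose and 19.3% fell. Of 16 genes of the carbonic anhydrase family, 6 rose and 3 fell, with Car12 at 4.07, Car14 at 3.23, Car2 at 2.14 and Car11 at -1.34. Active enzymes of this family supply bicarbonate and protons to such carriers, but not every member is active. Of 8 genes of the kinases and scaffolds that regulate Slc12 carriers 4 rose and 3 fell, with Cab39l at 4.22 and Stk39 (SPAK) at 3.15. Of 6 exchanger partners 3 rose and 1 fell, with Ezr at 3.91, Ahcyl2 at 2.52 and Tesc at -1.27. Of 13 iron and copper genes 7 rose and 1 fell, led by the copper importer Slc31a1 at 3.37. Zinc buffering genes gave 2 rises and 1 fall of 5 (Mt3 0.77), and mitochondrial calcium genes 3 rises and 2 falls of 8 (Smdt1 0.91, Micu3 -2.00).

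Other cell types moved with this comparison. All 5 choroid plexus epithelium markers were higher in CP (median log2 4.87), and all 4 excitatory neuron and all 5 astrocyte markers were lower. The 1 blood gene measured, the globin gene Hba-a1, was also higher, with a median of 776 in CP (51.5 to 1843) against 30.4 to 71.5 elsewhere. Of 4 endothelial markers 3 were higher, and of 4 mural cell markers 2, whose list summed to a median of 168 in CP against 87.5 to 114. Of 3 ependymal markers 2 were higher, the list summing to a median of 250 in CP (158 to 273) against 43.5 to 50.2. The part of blood, vessel and ependymal cells in the members' differences was not tested. Across the deposited scaling, quantile normalization, 75th percentile scaling, subtraction of the negative probe and edgeR on recovered counts, the same 16 rises and 17 of the 19 falls were called each time, Slc4a3 and Slc12a9 being the exceptions. These are 27.1% and 28.8% of the members, against 18.9% and 15% of all genes. Because the scale is log2(signal + 1) with background included, it understates low genes: with the negative probe subtracted, Slc39a12 stood at 4.98 and Slc8a2 at -6.32. Slc39a12 outside CP and Slc8a2 in CP lay near background, so little signal was left there after subtraction. The subtracted sizes depend on that floor and are not better measured.

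CA3 was compared with CA1 in 10 mice. Here 3 members were higher in CA3 (3.55% of all genes) and 7 lower (10.7% of all genes), the median being 0.00 for members and for all genes. The members that fell were calcium, chloride and vesicular zinc carriers and an endosomal proton exchanger. No Slc39 gene was called. Other cell types moved with the comparison: the median sums in CA3 and CA1 were 362 and 232 for 5 oligodendrocyte markers (2 called higher), 379 and 293 for 5 astrocyte markers (2 higher), 4758 and 2273 for 4 neuron markers (2 higher, 1 lower) and 5767 and 7278 for 4 excitatory neuron markers (1 higher, 1 lower). Their part in the members' differences was not tested.

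Slc24a3 (chr2:145167775-145642166) read 35.4, 86.9 and 140 in CA3 against 149, 212 and 232 in CA1, with no overlap, and fell by 1.29 (SE 0.11, adjusted p = 3.84e-07). Slc12a5 read 119, 193 and 256 against 215, 361 and 498 and fell by 0.92 (SE 0.10, adjusted p = 6.04e-06). Slc8a1 read 87.8, 199 and 264 against 206, 327 and 467 and fell by 0.89 (SE 0.10, adjusted p = 9.8e-06). Levels of the last pair overlapped between mice, yet each gene was lower in CA3 within all 10 mice. Slc24a4 fell by 0.70 (22.1, 39.6 and 57.6 against 51.7, 63.0 and 70.4, SE 0.12, adjusted p = 0.000505), again in all 10 mice. Slc9a9 fell by 0.59 and Slc30a3 by 0.53, each with 1 of 10 mice above 0. Neither Slc8a2 (medians 316 in CA3 and 311 in CA1) nor Slc24a2 (339 and 293) was called.

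The scaffold gene Slc9a3r2 (NHERF2) read 34.4, 44.6 and 52.7 in CA3 against 14.7, 25.4 and 35.9 in CA1 and rose by 0.88 (SE 0.17, adjusted p = 0.00169), in all 10 mice and with slightly overlapping groups. Slc9a5, a proton exchanger of neurons, rose by 0.57 (17.7, 21.7 and 26.9 against 8.28, 15.7 and 22.6, SE 0.14, adjusted p = 0.00978), from a CA1 signal at 1.13 times background. Slc4a4 rose by 0.61, in 8 of 10 mice (SE 0.19, adjusted p = 0.0453), and its call was lost when any mouse but 1151, 1152 or 1170 was left out. Of the other lists, 2 of 5 zinc buffering genes rose (Mt2 0.75 and Mt1 0.59), 1 of 8 mitochondrial calcium genes rose (Mcu 0.87), and Car10 rose by 0.99 while Car11 fell by 1.27 and Car7 by 0.92. Of all genes 3.55% rose and 10.7% fell in this comparison.

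The balance of CA3 and CA1 calls moved with scaling. Quantile normalization and 75th percentile scaling each gave 5 higher and 5 lower, and edgeR gave 5 higher and 11 lower. The median of all genes moved to 0.15 with the 75th percentile and to -0.18 with the negative probe subtracted. Called in all 5 scalings were Slc9a3r2 and Slc9a5 upward and Slc12a5, Slc24a3, Slc24a4 and Slc8a1 downward, 3.39% and 6.78% of the members, close to the 2.68% and 5.51% of all genes. The CA3 AOIs of control mouse 1175 had the lowest CA3 marker sum of the 10 mice, 406, and without that mouse 8 members were called and Slc24a3 stood at -1.21. Without mouse 1163, 10 were called and Slc24a3 stood at -1.36.

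CA1 was compared with the mean of MC and SS in 10 mice. In CA1 27 members were higher (34.1% of all genes) and 8 lower (12.7% of all genes), with a median of 0.14 against -0.04 over all genes. Calcium and chloride carriers of neurons gave the largest differences. Slc24a3 read 149, 212 and 232 in CA1 against 22, 27.3 and 41.0 in cortex, a 6.92-fold rise (log2 2.79, SE 0.08, adjusted p = 5.82e-18) with the groups far apart. Slc12a5 read 215, 361 and 498 against 85.5, 128 and 182 (log2 1.51, SE 0.08, adjusted p = 1.21e-13). Slc8a1 read 206, 327 and 467 against 85.8, 117 and 153 (log2 1.44, SE 0.06, adjusted p = 4.97e-15). In all 3 genes the lowest CA1 mouse lay above the highest cortical mouse.

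The same separation held for Slc9a2 (49.6, 73.2 and 92.0 against 22.6, 27.2 and 30.2, log2 1.38, SE 0.08), for Slc8a2 (log2 1.3, SE 0.09) and for Slc24a2 (log2 1.15, SE 0.08), with adjusted p from 4.22e-13 to 3.84e-11. For Slc8a2 it held against the mean of MC and SS, while MC alone reached 219 in a CSS mouse, above the lowest CA1 mouse (214). Slc24a2 was not called after quantile normalization (0.20, adjusted p = 0.106). Also higher were the sodium bicarbonate cotransporter Slc4a7 at 1.14 and the vesicular zinc exporter Slc30a3 at 0.80. Of the 14 zinc importers 7 rose, by 0.30 to 0.71, led by Slc39a3, where 34.1% of all genes rose. Slc39a3 and Slc39a14 were called higher in every scaling compared below. Most of the other importer rises were not, so they depended on scaling.

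Of the 8 members lower in CA1, Slc9a3r2 (14.7, 25.4 and 35.9 against 34.2, 41.5 and 46.9, log2 -0.74, SE 0.16, adjusted p = 0.000383) and Slc9a5 (log2 -0.67, SE 0.16, adjusted p = 0.00135) had the same sign in all 10 mice. Slc12a4, Slc4a9, Slc39a8, Slc39a12, Slc30a2 and Slc4a1 fell by 0.37 to 0.51, and with Slc9a5 they stood at 0.85 to 1.25 times the negative probe in CA1. Background itself differed, the median gene being 1.69 times the negative probe in CA1 and 1.35 and 1.41 times in the cortex. With the negative probe subtracted, only Slc12a4, Slc9a3r2 and Slc9a5 were called lower. Beyond that fit, the part of background in these small falls was not tested. Without mouse 1152, or without mouse 1162, 5 members were lower in place of 8.

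The split of calls depended strongly on scaling, as the plot of calls under 5 scalings shows. Quantile normalization gave 13 higher and 9 lower, edgeR 22 and 21, and 75th percentile scaling 16 and 30, while subtracting the negative probe gave 31 and 3. The median of all genes moved from -0.04 to -0.45 with the 75th percentile, to -0.18 with edgeR and to 0.57 with the negative probe subtracted. In all 5 scalings 11 members were called higher, among them Slc12a5, Slc24a3, Slc24a4, Slc30a3, Slc39a3, Slc39a14, Slc4a7, Slc8a1, Slc8a2 and Slc9a2. The 11 make 18.6% of the members, against 9.75% of all genes. Slc12a4, Slc9a3r2 and Slc9a5 were called lower each time, 5.08% of the members against 2.01% of all genes. Slc30a6 and Slc39a6 were called in opposite directions by different scalings, so no direction is given for them.

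**Figure D3:**
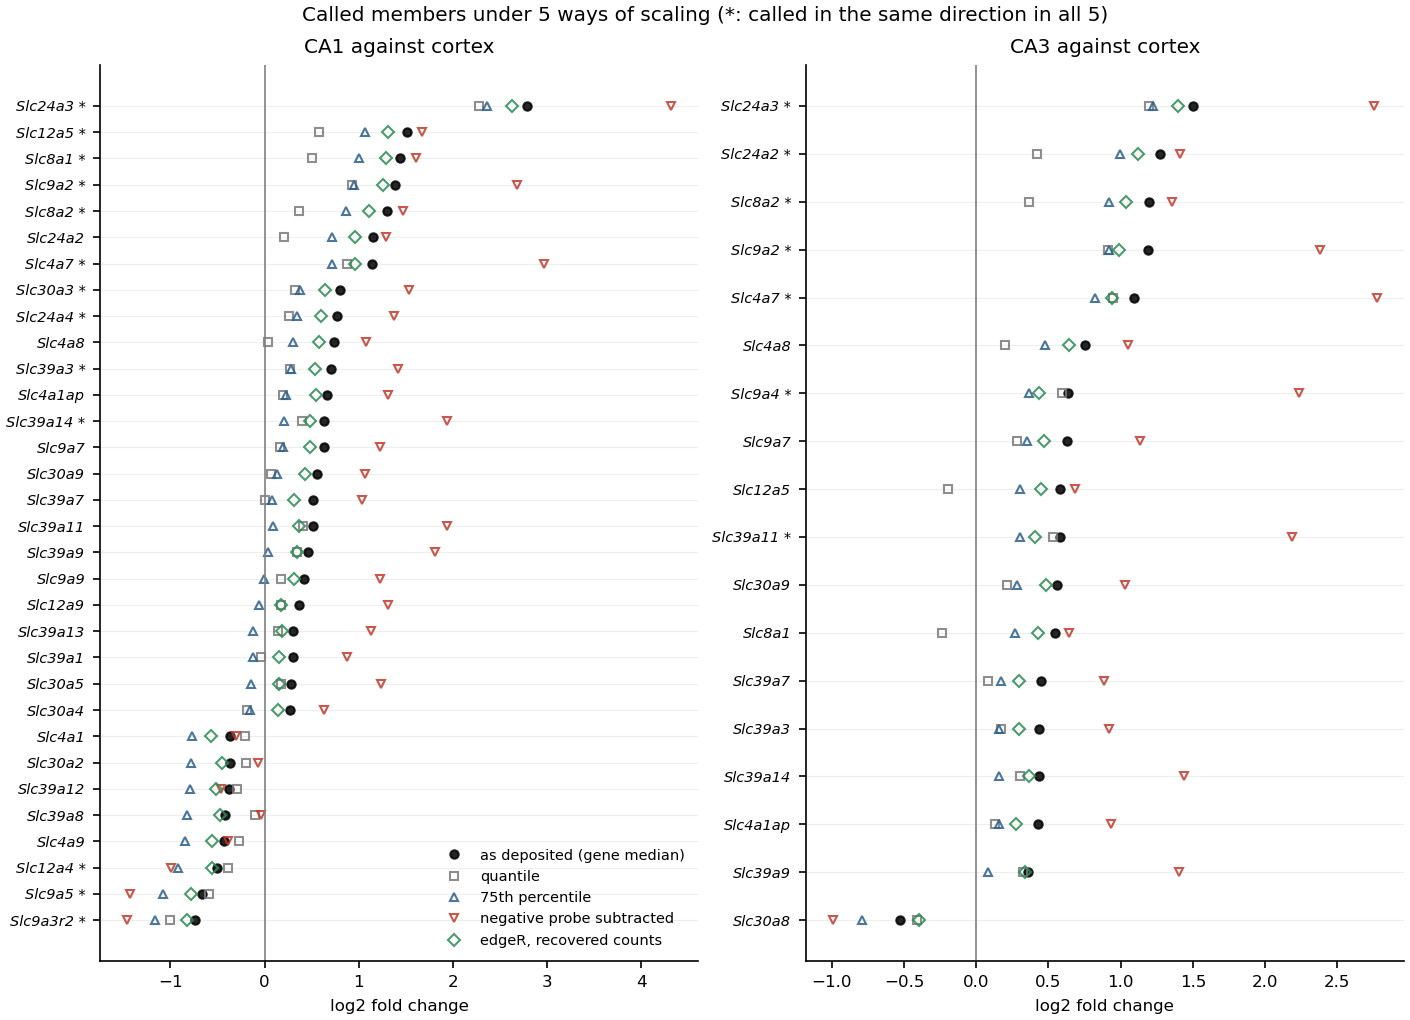
Log2 fold change (x axis) of the members called against cortex in CA1 (left, 32 members shown) and CA3 (right, 18 members shown), under the deposited scaling (filled) and 4 others (open symbols), with a star where all 5 called the same direction. Slc24a3 lies above 0 in every scaling in both panels, and Slc12a5 and Slc8a1 in CA3 lie below 0 after quantile normalization.

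CA3 against the same cortical AOIs gave 19 members higher (27.3% of all genes) and 1 lower (5.12% of all genes), with a median of 0.10 against 0.00 over all genes. The cortical values are shared with the CA1 comparison, so the pair of comparisons are not independent. Slc24a3 was again highest, at 1.5 (SE 0.12, adjusted p = 3.17e-10), although CA3 and cortex overlapped at 35.4 and 41.0. Slc24a2 read 167, 339 and 457 against 95, 137 and 174 (log2 1.27, SE 0.11, adjusted p = 6.42e-10), and Slc8a2 read 197, 316 and 451 against 96.8, 130 and 187 (log2 1.2, SE 0.11, adjusted p = 4.07e-09). For Slc8a2 the lowest CA3 mouse was above the mean of MC and SS of every mouse, though MC alone reached 219 in a CSS mouse. For Slc24a2 the lowest CA3 mouse (167) lay below the highest cortical mouse (174). Slc9a2 (1.19), Slc4a7 (1.09) and Slc4a8 (0.75) rose as well. Slc12a5 and Slc8a1 rose by 0.58 and 0.55, but stood at -0.20 and -0.24 after quantile normalization (adjusted p = 0.138 and 0.065, limma).

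Only Slc30a8, an exporter known from insulin granules, was lower in CA3, by 0.53 (SE 0.17, adjusted p = 0.0177) with 2 of 10 mice above 0, and it was not called without mouse 1170. With quantile normalization the split was 10 higher and 3 lower, with the 75th percentile 14 and 20, with edgeR 20 and 12, and with the negative probe subtracted 25 and 0. In the last 3 the median of all genes moved to -0.27, -0.12 and 0.41. Called higher in all 5 scalings were 9 members, among them Slc24a2, Slc24a3, Slc39a11, Slc4a7, Slc8a2, Slc9a2 and Slc9a4, or 15.3% against 8.19% of all genes.

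Companion genes of these pathways were counted under the deposited scaling alone, where 34.1% of all genes were higher in CA1 and 12.7% lower. In all 5 scalings 9.75% of all genes were higher in CA1. In CA1, 2 of 5 zinc buffering genes rose (Mt3 1.0, Mtf1 0.41), 4 of 8 chloride kinase genes (Cab39 1.2, Wnk2 0.46), 3 of 6 exchanger partners (Tesc 1.37, Ahcyl1 0.80, Chp1 0.50) and 4 of 8 mitochondrial calcium genes (Micu3 0.99, Smdt1 0.75, Letm1 0.66). Carbonic anhydrase family genes gave 4 rises and 2 falls of 16, with Car11 at 1.36, Car7 at 1.13 and Car10 at -1.22. In CA3 the rises were 4 of 5 zinc buffering genes, 3 of 8 chloride kinase genes, 4 of 6 exchanger partners and 5 of 8 mitochondrial calcium genes. Of all genes 27.3% were higher in CA3 and 5.12% lower in that fit, and 8.19% were higher in all 5 scalings. Falls of these lists in CA3 are not given here. Excitatory neuron markers were higher than in cortex in CA1 (4 of 4, median 1.37) and in CA3 (4 of 4, median 1.39). Oligodendrocyte markers were lower (5 of 5 and 4 of 5). The 4 neuron markers had median sums of 2273 in CA1, 4758 in CA3, 2338 in MC and 2179 in SS. In the same order 5 inhibitory neuron markers gave 454, 369, 671 and 518. Likewise 4 endothelial markers gave 89.1, 96.3, 133 and 118, and 4 microglia markers 102, 104, 136 and 127. The part of these cell types in the members' differences was not tested.

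Between motor and somatosensory cortex limma called 0 of the 59 members in 10 mice (0% of all genes), and the lowest adjusted p of a member was 0.921. At an unadjusted p under 0.05 there were 2 members, against 3.42% of all genes, and edgeR called 0 members and 14 genes. Estimates ran from -0.18 to 0.34. Slc12a1 read 16, 21.1 and 27.1 in MC against 9.56, 17.9 and 19.9 in SS (log2 0.32, SE 0.13, unadjusted p = 0.0207 in limma, higher in 10 of 10 mice), at 1.28 times background or less. At the other end stood Slc12a3 at -0.18, Slc8a1 at -0.15 and Slc12a9 at -0.12.

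The p16 label was compared within mouse and subregion. Over hippocampus and cortex (34 pairs in 10 mice) limma called 0 members in either direction (0% of all genes). At an unadjusted p under 0.05 there were 10 members (16.9%), 9 higher in p16 high AOIs and 1 lower, against 11.8% of all genes. The median difference was 0.05 for members and 0.03 for all genes, and 40 of 59 members (67.8%) lay above 0 against 57.7% of all genes. Signal over background moved with the label: the ratio of gene median to negative probe was 0.0473 higher on the log2 scale in p16 high AOIs, above 0 in 9 of 10 mice, and all 4 excitatory neuron markers lay above 0 (median 0.17). The ratio was also fitted as a covariate in limma, and Slc30a8 then changed sign, to 0.16 (adjusted p = 0.61). The part of the excitatory neuron markers was not tested.

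Slc8a1 read 124, 206 and 305 in p16 high AOIs and 109, 171 and 219 in p16 low AOIs. The groups overlapped widely, and the difference was 0.21 (SE 0.07, 95% interval 0.06 to 0.36, unadjusted p = 0.00982 and adjusted p = 0.4 in limma, above 0 in 9 of 10 mice). edgeR on recovered counts called this gene alone of the 59 (0.21, adjusted p = 0.0357), with 143 genes higher and 8 lower in all. Slc9a7 stood at 0.22 (36.5, 48.2 and 62.0 against 29.8, 39.5 and 56.4, 8 of 10 mice) and Slc24a2 at 0.15 (147, 232 and 326 against 134, 206 and 253, 8 of 10 mice). Over 20 other settings Slc8a1 ran from 0.06 to 0.31, Slc9a7 from 0.13 to 0.40 and Slc24a2 from 0.01 to 0.17. Slc4a1 stood at -0.34 (10.5, 15.9 and 23.0 against 15.9, 18.5 and 28.8, unadjusted p = 0.0132 in limma), with 0 of 10 mice above 0 but a signal at background. Slc30a2 at -0.19 and Slc30a8 at -0.16 were also at background.

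In single subregions the p16 fits by limma gave 0 members called in CA1, CA3, MC or SS (0% of all genes in each), and edgeR also gave 0 members, with 159 genes over the 4 fits. At an unadjusted p under 0.05 there were 5 members in CA1 (7.69% of all genes), 7 in CA3 (10.3%), 3 in MC (2.44%) and 1 in SS (1.89%). In CA1 Slc8a1 stood at 0.28, above 0 in 8 of 8 mice, Slc39a14 at 0.53 and Slc4a1 at -0.78, below 0 in all 8. In CA3 all 7 lay above 0, with Slc9a7 at 0.40 in 8 of 8 mice and the chloride carrier Slc12a5 at 0.33. In choroid plexus (7 pairs) limma called 0 members (0% of all genes) with 1 member at an unadjusted p under 0.05 against 1.74% of all genes, and edgeR called 0 members and 6 genes. That member was Slc39a4, at -0.46 (23.5, 37.1 and 45.7 in p16 high against 40.2, 47.1 and 60.7 in p16 low, unadjusted p = 0.0412 in limma). The ranges overlapped.

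The stress groups were compared over animals, 6 CSS against 4 control mice. Over all subregions limma called 0 members (0% of all genes), each with an adjusted p of 1. At an unadjusted p under 0.05 there were 2 members against 0.721% of all genes, both of them zinc importers. Slc39a1 read 33.3, 46.2 and 53.2 in CSS mice and 28.8, 38.3 and 40.7 in controls (log2 0.30, SE 0.13, unadjusted p = 0.0298 in limma). Slc39a11 read 23.7, 27.0 and 28.4 against 20.1, 24.5 and 25.5 (log2 0.25, unadjusted p = 0.0312 in limma). These readings are uncentred means of each mouse, whereas the fit used values centred within subregion and p16 label. CSS mouse 1169 had no CP AOI, and Slc39a1 was higher in CP than elsewhere, so its readings are not balanced over subregions. Both ranges of uncentred means overlapped between groups. Member estimates ran from -0.24 for Slc30a5 to 0.30, with a median of -0.01 as for all genes.

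Within single subregions limma called 0 members for CSS against control (0% of all genes in CA1, CA3, MC, SS and CP), and edgeR called 0 members and 17 genes over the 5 fits. Members at an unadjusted p under 0.05 numbered 2 in CA1, 3 in CA3, 0 in MC, 2 in SS and 2 in CP, where 1.92%, 2.94%, 1.36%, 1.84% and 4.29% of all genes did. In CP Slc39a11 read 21.1, 25 and 29.4 in 5 CSS mice and 5.52, 15.2 and 23.8 in 4 controls (log2 0.85, SE 0.27, unadjusted p = 0.00253 and adjusted p = 0.999 in limma), with ranges that overlapped slightly and controls at background. In CA1 the same gene read 24.9, 35.1 and 49.1 against 22.9, 24.3 and 28.6 (log2 0.59, unadjusted p = 0.0236 in limma). In CA3, MC and SS Slc39a11 stood at -0.16, 0.04 and 0.01. The lowest unadjusted p in CA1 was that of Slc39a8 (7.70, 8.73 and 12.3 against 10.2, 14.5 and 17.7, log2 -0.60, unadjusted p = 0.0153 in limma), a gene at background there, and in CA3 it stood at 0.45.

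**Figure D4:**
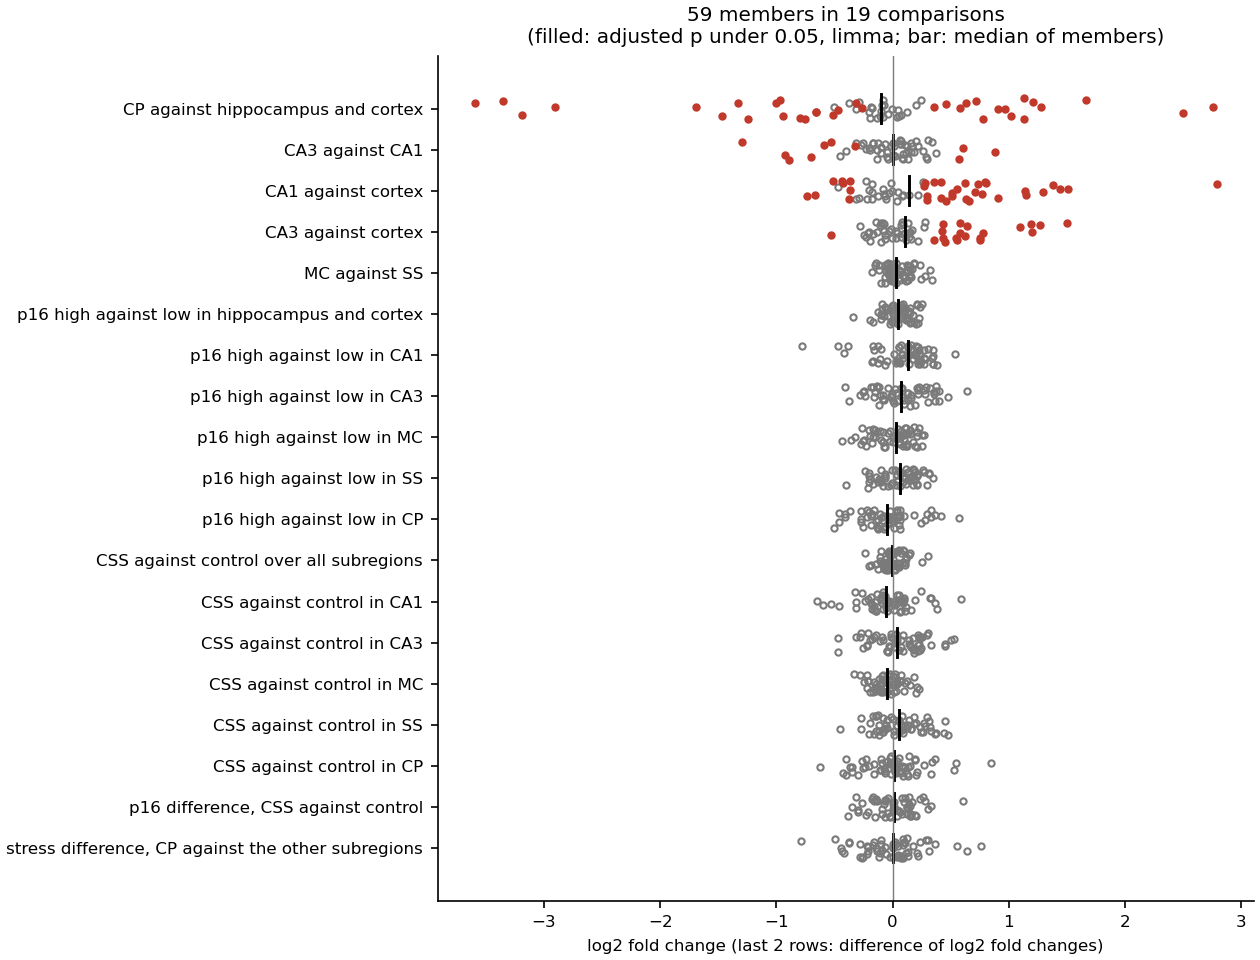
Log2 fold changes (x axis) of the 59 members in 19 comparisons, filled where called, with a bar at the median member. Members spread from -3.60 to 2.76 between choroid plexus and the rest and from -0.24 to 0.30 between CSS and control mice over all subregions.

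Whether the p16 difference depended on stress, and whether the stress difference depended on the tissue, was tested with interaction terms. For the first, limma called 0 members (0% of all genes) and 1 member had an unadjusted p under 0.05, against 3.31% of all genes. It was Slc12a7 (KCC4), whose p16 difference was -0.10, 0.27 and 0.49 in CSS mice and -0.93, -0.20 and -0.16 in controls, groups that did not overlap (0.60, SE 0.19, unadjusted p = 0.00521 and adjusted p = 0.998 in limma). Outside choroid plexus the signal of this gene was at background. For the second, limma called 0 members (0% of all genes) and 1 had an unadjusted p under 0.05, against 3.6% of all genes. It was Slc39a11, whose choroid plexus difference was -0.38, 0.07 and 0.19 in CSS mice and -2.07, -0.54 and -0.05 in controls (0.76, SE 0.34, unadjusted p = 0.0436 and adjusted p = 1 in limma).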

How the data were processed

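The authors deposited 1 table of GeoMx Whole Transcriptome Atlas signal, scaled to a common gene median per AOI as its values show. Per the submitters' processing notes the build was mm10. The aligner and the counter were not given in the sources used here. Dividing by each AOI's step recovered whole counts (at least 99.975% of values within 0.01), which edgeR used as an alternative.

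Members and lists were chosen with earlier results of these data known. Values were log2(signal + 1), so fold changes of low genes are understated. AOIs were averaged per mouse, the replicate. limma 3.58.1 (R 4.3.3, trend, 2-sided) was fitted over all 19962 genes with Benjamini-Hochberg adjustment, calling an adjusted p under 0.05. edgeR was version 4.0.16. Statistics were tested on simulated data. Subregion and p16 comparisons were paired by mouse number, the 2 sides being the same animal. Paired p16 deviations correlated at a median of 0.0817 (41 pairs, 16 over 0.1). All members could be named, but the values of 3 are not reported here, though counts and medians include them. Those described most were the 6 highest and 6 lowest called with 1 sign in every mouse, or, where none was called, the 3 highest and 3 lowest by moderated t. Of other lists up to 4 genes with the smallest p were named. All AOI columns were used.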

Additional observations from a re-analysis of the deposited data

Results flagged for a closer look

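Of 32 within-mouse differences of named members, 2 had a mouse far from the others by Dixon's test, where chance alone gives about 1 in 20. The choroid plexus difference of Slc24a2 was -2.45 in CSS mouse 1163, against -3.93 to -3.19 in the other 8 of 9 mice. The gap was 0.499 of the range, and without that mouse the difference was -3.47 (limma adjusted p = 1.58e-10). The CA3 against CA1 difference of Slc24a3 was -2.07 in control mouse 1175, against -1.44 to -0.71 in the other 9 of 10 mice, a gap of 0.468 of the range. Without it the difference was -1.21 (limma adjusted p = 7.52e-07). The CA3 pyramidal markers of mouse 1175 also had the lowest sum in CA3, and whether this moved with Slc24a3 for a shared reason was not tested.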

How the results depend on the processing

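Of 222 counts of called members under other settings, 216 stayed within 1.5 times the value reported. Quantile normalization called 22 members in CA1 against cortex and 13 in CA3 against cortex. The 75th percentile scaling called 34 in CA3 against cortex. edgeR called 16 in CA3 against CA1, 32 in CA3 against cortex and 1 (Slc8a1) for p16 in hippocampus and cortex. Leaving out each mouse in turn gave 34 to 37 called in choroid plexus, 8 to 10 in CA3 against CA1, 30 to 36 in CA1 against cortex, 20 to 22 in CA3 against cortex, and 0 in each p16, stress, MC against SS and interaction fit. With no replicate block (mouse as an unpaired label) 34, 9, 34 and 21 were called in the first 4, and a random block for mouse gave 39, 10, 39 and 24. Of the 32 called differences described in most detail (1 sign in every mouse), 604 values under other settings held 1 lost call (Slc24a2, CA1 against cortex, quantile, 0.20, adjusted p = 0.106) and 0 reversals. Called members outside these 32 did change, among them Slc12a5 and Slc8a1 in CA3 against cortex, at -0.20 and -0.24 with quantile normalization. Among 640 values of 36 differences that were not called, 5 reversed: Slc12a8 for p16 in CP with the negative probe subtracted (-0.027), and, with signal over background as a covariate, Slc30a8 for p16 in hippocampus and cortex (0.16) and, for p16 in CP, Slc4a4 (-0.011), Slc30a2 (-0.029) and Slc24a2 (0.23). edgeR was not run for CSS against control over all subregions or the interactions.

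The 17 members that reached 2 times the negative probe in no subregion had signals near background. The part of sequencing depth in this was not tested. Among all member readings, 12.7% did not exceed the probe. Control mice numbered 4, p16 pairs in choroid plexus 7. AOIs come from sections of 10 animals, and nothing in the labels says how AOIs were chosen.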
